A study of Macaca mulatta with 9 samples.

Results

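Heat shock proteins and their cochaperones were followed in the whole-blood transcriptomes of 9 rhesus macaques that had received PBS or extracellular vesicles. The members were picked by gene symbol alone: the small heat shock proteins (HSPB), HSP70 (HSPA), HSP110 (HSPH), HSP90, the mitochondrial HSP60 and HSP10 (HSPD and HSPE), the J-domain proteins DNAJA, DNAJB and DNAJC, the ring subunits TCP1 and CCT2 to CCT8, and BAG1 to BAG6. The rule found 80 members among the 24371 genes of the deposited table. HSPB gave 5 of them, HSPA 12, HSPH 1, HSP90 3, HSPD and HSPE 2, DNAJA 4, DNAJB 12, DNAJC 25, CCT and TCP1 10, and BAG 6.

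The animals, all of wild-type genotype, fell into 3 groups of 3. The PBS group was injected with PBS alone, and its columns carry the name Old. The FBMSC_EV group was injected with vesicles of the cells that the labels call FBMSC, and the ABPC_EV group with vesicles of antler blastema progenitor cells. The labels give no dose, no duration and no age. Each library is a different animal, so the spread within a group is between animals.

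Chaperones bind unfolded or partly folded proteins and keep them from aggregating. HSP70 does so in cycles of ATP hydrolysis: J-domain proteins bring the substrate and start hydrolysis, and nucleotide exchange factors such as HSP110 and the BAG proteins release it. HSP90 takes over clients near their native state, the small heat shock proteins hold unfolded protein without ATP, and the chaperonins enclose it, HSP60 with its HSP10 lid in mitochondria and the TCP1 ring, which folds actin and tubulin, in the cytosol. Heat and other proteotoxic stress induce part of the family through the transcription factor HSF1. Red cell precursors use chaperones while they make globin, and leukocytes express most of the cytosolic classes without stress.

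The deposited values are log2 of a per-million value plus 0.5, and values below are given after undoing that log, as per-million values that take gene length into account. The libraries held 11733640 to 14468919 recovered reads. Most of the per-million total came from red cells: a list of 40 erythroid genes made up 88.7% to 93.1% of the per-million total in PBS, 82.9% to 88.1% in FBMSC_EV and 71.3% to 83.0% in ABPC_EV. Every other gene shares what remains, and the number of genes at a per-million value of 1 or more ran from 5393 in PBS replicate 1 to 11941 in ABPC_EV replicate 3. The median-ratio size factor, which compares libraries by the median of 13350 genes seen in all of them, was 0.326 to 0.757 in PBS, 0.945 to 1.19 in FBMSC_EV and 1.502 to 2.485 in ABPC_EV. Dividing by it gives the scaled values used beside the deposited ones. After scaling, the listed NK cell and T cell markers had medians of 0.94 and 0.41 (log2) in ABPC_EV against PBS, and the neutrophil, B cell and erythroid markers -0.54, -0.54 and -1.48, with none called. The 4 listed genes of other tissues that are in the table summed to at most 0.0947. In bulk blood, fewer cells of a type and less RNA per cell cannot be told apart.

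As deposited, the summed per-million value of the 80 members was 281, 309 and 500.3 in the PBS animals, 741.5, 972 and 716 in the FBMSC_EV animals, and 935, 1743 and 2013 in the ABPC_EV animals. Both vesicle groups lay above all PBS animals, while they overlapped each other. After scaling the sum was 863, 666 and 661 in PBS, 762, 817 and 757 in FBMSC_EV, and 622, 815 and 810.1 in ABPC_EV. The groups then overlapped, and their means were 729.7 ± 115, 779 ± 32.9 and 749 ± 110 (SD, n = 3). Every ABPC_EV animal had both a higher deposited sum and a lower erythroid share than every PBS animal, and the part of that share in the sum was not tested.

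**Figure D1:**
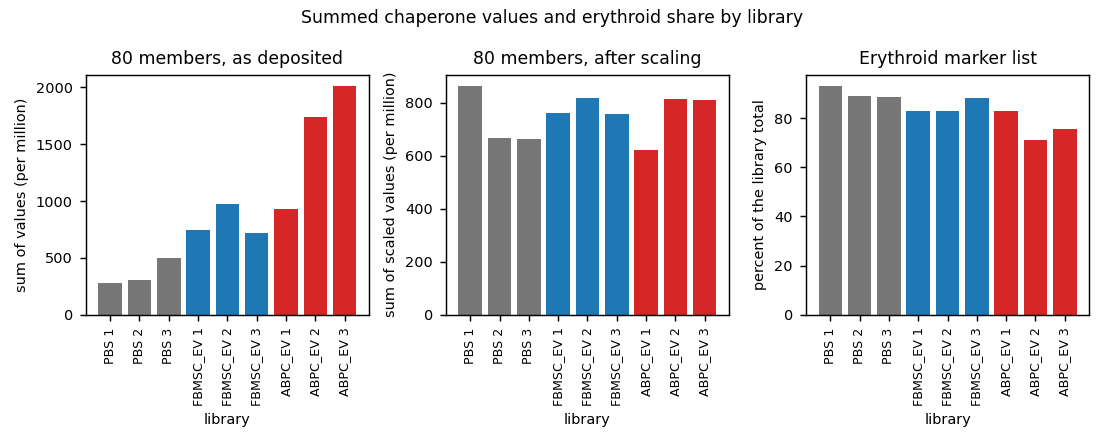
Bars give, for each of the 9 libraries, the sum of the 80 members as deposited (left, per-million value), the same sum after median-ratio scaling (middle) and the percent of the per-million total held by the erythroid list (right). The deposited sum runs from 281 to 2013 and the scaled sum from 622 to 863.

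HSPA8, the constitutive cytosolic HSP70, was the most abundant member per length in every library, at 29.6% to 35.6% of the summed member values. HSP90AB1 and HSP90AA1, the constitutive and the stress-responsive cytosolic HSP90, held 5.57% to 9.64% and 4.03% to 7.83%, and HSPA5, the HSP70 of the endoplasmic reticulum, 4.36% to 7.02%. By class, HSP70 held 38.1% to 44.0% of the values, HSP90 14.96% to 19.2%, and CCT with TCP1 11.6% to 16.0%, whereas the small heat shock proteins held 0.151% to 0.347%. Of the 80 members, 67 were above 0 in every library and 3 (DNAJB8, CCT8L2 and HSPA12A, named after their values were seen) in a single library. A filter of a per-million value of at least 1 in at least 3 libraries left 59 members and 10596 genes for testing.

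In blood of ABPC_EV animals, nearly every tested chaperone gene had a higher deposited value than in PBS animals, as did nearly every other gene. Of 59 tested members 57 were called higher and 0 lower (limma on log2(value + 1), Benjamini-Hochberg adjusted p under 0.05 over all genes), and 90.9% of all genes tested were called higher too. The values of 55 members did not overlap between the groups and were higher in all ABPC_EV animals, beside 85.4% of all genes tested. The median log2 fold change was 1.55 over the tested members and 1.41 over all genes tested. DNAJB4 (0.65 ± 0.34, SE; limma adjusted p = 0.0741) and HSPB11 (0.59 ± 0.31, limma adjusted p = 0.0803) did not pass.

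The call depended on the scale. When the erythroid genes were removed and the remainder was rescaled to a common total, 0 members and 0 of 10557 genes were called. The member median was then 0.81, beside 0.73 for all genes. After median-ratio scaling, 0 of 59 members were called in either direction, as were 0% of all genes tested, and limma-voom on the recovered reads also called 0 members. The median member fold change was then 0.06, beside 0.00 over all genes, with 38 members above 0 and 21 below and, among all genes, 5322 above and 5274 below. Scaling divides all genes of a library by the same factor, so these signs are relative to the median gene. At an unadjusted p under 0.05 the scaled values gave 2 members higher (3.08% of all genes tested) and 2 lower (7.12%), and limma-voom gave 2 and 2. Leaving out 1 library made the 4 between 2 (without ABPC_EV replicate 3) and 6 (without PBS replicate 3). A call missed at 3 animals a group does not show that the levels are alike: the standard errors of the scaled fold changes ran up to 0.66.

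A gene could pass the filter through the vesicle groups alone. Of the 59 tested members, 35 were at 1 or more in every PBS library, 7 in none of them, and 2 (DNAJC4 and DNAJC25) in ABPC_EV libraries only, which had to differ to be tested. Without any filter, 63 of the 80 members and 12962 of the 24371 genes were higher in all ABPC_EV than in all PBS animals as deposited.

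**Figure D2:**
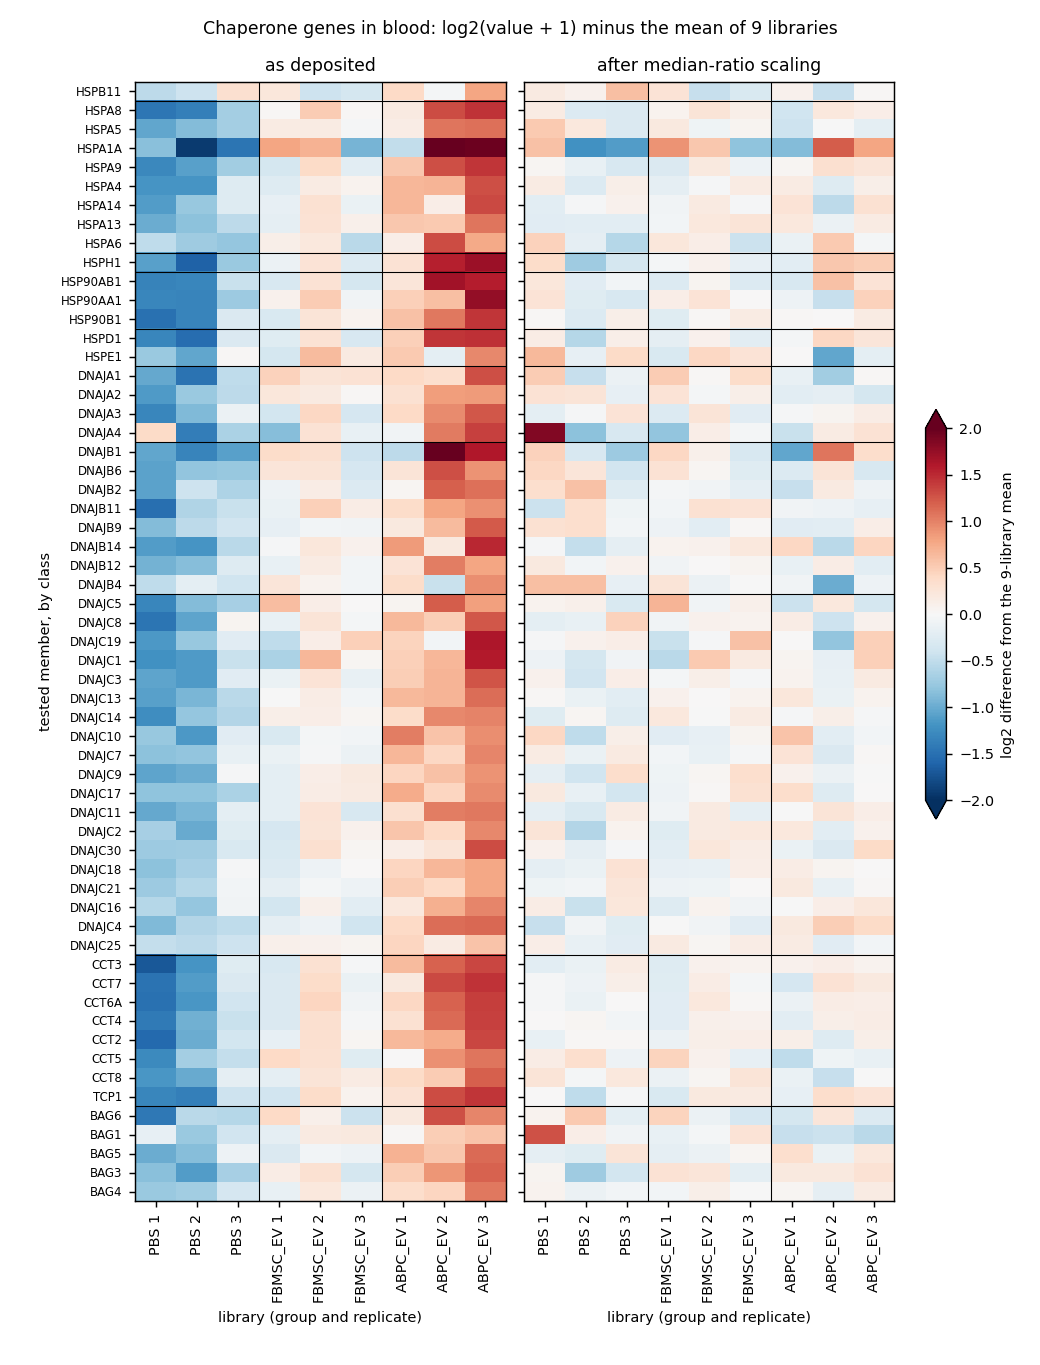
Each row is a tested member, ordered by class, and each column a library; colour gives log2(value + 1) minus the mean of the 9 libraries (red above, blue below), as deposited on the left and after scaling on the right. The deposited panel turns from blue in PBS to red in ABPC_EV over almost all of the 59 rows, and the scaled panel keeps single cells such as DNAJA4 and BAG1 in PBS replicate 1 and HSPA1A.

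By class, the deposited medians against PBS ran from 0.59 for the single tested HSPB gene, HSPB11, to 2.33 for HSPH1, and the other classes lay between them. HSPB was the only class whose median was below the 1.41 of all genes, of which 90.9% were called higher. That value is of HSPB11 alone, a gene of intraflagellar transport. HSPB1, HSPB2, HSPB6 and HSPB9 were not tested, so it does not speak for them. HSP90 (3 of 3 members called, median 2.06), CCT with TCP1 (8 of 8, 1.91) and HSP70 (8 of 8, 1.70) stood above DNAJA (4 of 4, 1.55), DNAJB (7 of 8, 1.51), DNAJC (19 of 19, 1.46) and BAG (5 of 5, 1.43). After scaling, each class median lay between -0.40 (HSPB11) and 0.50 (HSPH1), with HSP70 at 0.17, HSP90 at 0.11, CCT with TCP1 at 0.04, DNAJC at 0.09, BAG at 0.04, DNAJB at -0.18, HSPD with HSPE at -0.20 and DNAJA at -0.24.

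**Figure D3:**
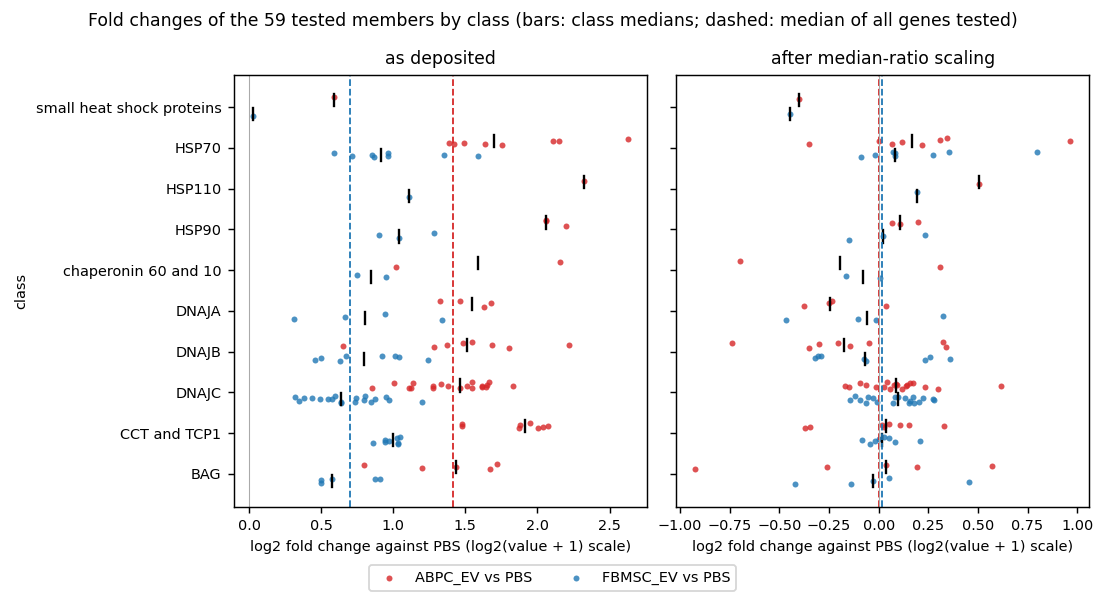
Points are the 59 tested members by class (rows), with log2 fold change against PBS on the horizontal axis, ABPC_EV in red and FBMSC_EV in blue; bars are class medians and dashed lines the medians of all genes tested. As deposited the red points centre on 1.55 and after scaling on 0.06.

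HSPA8 differed between groups as deposited and overlapped after scaling. Its deposited values were 88.2, 93.4 and 150.5 in PBS, 247, 346 and 247 in FBMSC_EV, and 276, 603 and 663 in ABPC_EV. Every vesicle animal lay above every PBS animal, and the log2 fold change of ABPC_EV against PBS was 2.15 ± 0.45 (SE; limma adjusted p = 0.000439). Scaled, the values were 270, 201 and 199, then 254, 290.4 and 262, then 184, 282 and 267. The lowest value came from an ABPC_EV animal and the highest from an FBMSC_EV animal. The scaled fold change was 0.12 ± 0.29 (limma adjusted p = 0.909).

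The other HSP70 genes differed in what scaling left. HSPA5 read 58.7, 46.7 and 32.9 scaled in PBS, 46.7, 38.1 and 42.2 in FBMSC_EV and 30.0, 40.3 and 35.3 in ABPC_EV. Its fold change of ABPC_EV against PBS was 1.64 as deposited and -0.35 ± 0.26 after scaling (limma adjusted p = 0.697), with overlapping groups. HSPA9, the mitochondrial HSP70 (mortalin), read 7.28, 6.24 and 5.44 in PBS, 5.60, 8.22 and 6.503 in FBMSC_EV and 7.28, 8.99 and 8.53 in ABPC_EV. It was higher by 0.34 ± 0.19 after scaling (limma adjusted p = 0.594), and the lowest ABPC_EV animal only equalled the highest PBS animal. HSPA13, an HSP70 of the microsomal membrane, was at 1.24, 1.25 and 1.26 in PBS, 1.52, 2.02 and 2.13 in FBMSC_EV and 2.04, 1.42 and 1.95 in ABPC_EV. Both vesicle groups lay above PBS without overlap, by 0.31 ± 0.16 in ABPC_EV and 0.35 ± 0.16 in FBMSC_EV (unadjusted p = 0.0766 and 0.0482, limma adjusted p = 0.548 and 0.997). HSPA13 was under 1 as deposited in each PBS library, so it passed the filter through the vesicle groups.

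The HSP90 genes and HSPH1, an HSP110 that acts as exchange factor and disaggregase, were all called higher as deposited. HSP90AB1 read 61.0, 44.0 and 49.8 scaled in PBS, 42.5, 53.5 and 42.8 in FBMSC_EV, and 41.0, 78.5 and 62.8 in ABPC_EV. HSP90AA1 read 55.4, 38.5 and 36.3, then 50.1, 55.3 and 46.1, then 42.7, 32.8 and 63.4. ABPC_EV replicate 2 was thus the highest animal for HSP90AB1 and the lowest for HSP90AA1. The scaled fold changes against PBS were 0.20 ± 0.28 and 0.07 ± 0.29 (limma adjusted p = 0.839 and 0.953). Without ABPC_EV replicate 2 the HSP90AB1 value was -0.00, and that of HSP90AA1 was below 0 without ABPC_EV replicate 3 (-0.18), PBS replicate 3 (-0.04) or PBS replicate 2 (-0.00). HSP90B1, the HSP90 of the endoplasmic reticulum, stayed within 21.1 to 28.9 in all 9 libraries. HSPH1 read 12.7, 5.49 and 7.30 in PBS, 9.35, 10.3 and 8.51 in FBMSC_EV, and 8.20, 14.4 and 13.9 in ABPC_EV. Its scaled difference of 0.50 ± 0.30 (limma adjusted p = 0.627) ran from 0.27 without PBS replicate 2 to 0.81 without PBS replicate 1, an animal inside the ABPC_EV range.

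Shares within a pair of partners do not depend on library scaling. HSP90AA1 made up 47.6%, 46.6% and 42.2% of the cytosolic HSP90 pair in PBS, 54.1%, 50.8% and 51.9% in FBMSC_EV, and 51.0%, 29.5% and 50.2% in ABPC_EV. All FBMSC_EV animals lay above all PBS animals, and ABPC_EV replicate 2 stood apart from the other 8. HSPE1, the HSP10 lid, made up 45.2%, 43.0% and 40.9% of the HSPE1 and HSPD1 pair in PBS, 33.1%, 41.8% and 44.7% in FBMSC_EV, and 36.6%, 14.2% and 28.3% in ABPC_EV. Every ABPC_EV animal lay below every PBS animal. With 3 animals a group an exact two-sided permutation test cannot go below p = 0.1, which both separations reached. Over the 81 comparisons of 27 shares, 12 reached it and the smallest Benjamini-Hochberg adjusted p was 0.54. Apart from ring subunits given below, the others were shares of all member values. HSPA5 (4.36% to 4.95% against 4.97% to 7.02%) and BAG were lower in ABPC_EV than in PBS. HSPA8 (33.25% to 35.6% against 30.1% to 31.3%) and HSP70 were higher, and HSP90AB1 lower, in FBMSC_EV than in PBS. HSPH1, HSP90 and HSP90AB1 were higher in ABPC_EV than in FBMSC_EV.

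HSPE1 and HSPD1 form the mitochondrial chaperonin, and neither was called after scaling. HSPD1, the HSP60 barrel, read 12.7, 7.36 and 12.4 scaled in PBS, 9.95, 12.2 and 9.68 in FBMSC_EV and 11.1, 15.4 and 13.7 in ABPC_EV. HSPE1 read 10.4, 5.55 and 8.56, then 4.93, 8.75 and 7.82, then 6.37, 2.55 and 5.39. The ABPC_EV animals overlapped PBS for both genes, at 0.31 ± 0.24 for HSPD1 and -0.70 ± 0.33 for HSPE1 (limma adjusted p = 0.705 and 0.505). Without ABPC_EV replicate 2 the HSPE1 value was -0.37. As deposited HSPE1 was called higher at 1.02 ± 0.40 (limma adjusted p = 0.0213), a call lost without ABPC_EV replicate 3 (0.75), PBS replicate 1 (0.94) or PBS replicate 2 (0.79). HSPE1 rests on 28 to 84 recovered reads a library, and both genes have processed copies in primate genomes among which reads may have been split.

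J-domain proteins, which choose the substrates of HSP70, were tested for 4 of 4 DNAJA, 8 of 12 DNAJB and 19 of 25 DNAJC genes. DNAJB1, the stress-responsive cytosolic HSP40, read 20.9, 11.7 and 8.63 scaled in PBS, 20.2, 16.0 and 11.7 in FBMSC_EV, and 6.74, 32.4 and 19.2 in ABPC_EV. The lowest and the highest of the 9 were both ABPC_EV animals, and the scaled fold change against PBS was 0.32 ± 0.50 (limma adjusted p = 0.850), or -0.14 without ABPC_EV replicate 2. DNAJA1, the partner of HSPA8 with the highest level in its class, read 30.8, 15.1 and 19.4, then 30.6, 21.6 and 27.8, then 19.0, 12.7 and 21.6. DNAJA2, another cytosolic partner, read 12.6, 12.2 and 8.95, then 12.5, 9.79 and 11.01, then 8.55, 8.84 and 7.71. Every ABPC_EV animal was below every other animal for DNAJA2 after scaling, by -0.38 ± 0.19 against PBS (unadjusted p = 0.0767, limma adjusted p = 0.548), although as deposited it was called higher at 1.46.

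DNAJB4, a cytosolic J-domain protein, read 4.06, 4.07 and 1.98 scaled in PBS, 3.0, 2.08 and 2.31 in FBMSC_EV, and 2.17, 0.67 and 2.12 in ABPC_EV. The groups overlapped through PBS replicate 3, and the difference against PBS was -0.74 ± 0.29 (unadjusted p = 0.0321, limma adjusted p = 0.425), or -0.42 without ABPC_EV replicate 2. DNAJC4 went the other way, at 0.339, 0.767 and 0.567 in PBS, 0.835, 0.759 and 0.575 in FBMSC_EV, and 1.12, 1.60 and 1.42 in ABPC_EV. All ABPC_EV animals lay above the other 6, by 0.62 ± 0.17 against PBS (unadjusted p = 0.00494, limma adjusted p = 0.231), the smallest p of any member. It rests on 5 to 91 recovered reads a library, and since it passed the filter only through its ABPC_EV libraries, leaving out any of them removed it from the test. On the recovered reads limma-voom gave a log2 fold change of 1.27, since log2(value + 1) understates low genes.

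DNAJC5, the cysteine string protein of secretory vesicles and the DNAJC member with the highest level, read 9.14, 9.42 and 6.88 scaled in PBS, 14.5, 8.19 and 9.39 in FBMSC_EV, and 6.15, 10.2 and 6.58 in ABPC_EV. All 3 groups overlapped. DNAJB2, which is known to keep polyglutamine proteins soluble, read 11.3, 13.7 and 7.10, then 8.42, 8.28 and 7.58, then 6.04, 10.1 and 8.11, at -0.35 ± 0.25 in ABPC_EV and -0.32 ± 0.25 in FBMSC_EV against PBS (limma adjusted p = 0.689 and 0.997). Without PBS replicate 2 these were -0.16 and -0.14, and without PBS replicate 3 -0.59 and -0.57. DNAJB14, of the endoplasmic reticulum membrane, read 3.08, 1.98 and 2.67 in PBS, 3.39, 3.44 and 3.83 in FBMSC_EV, and 4.57, 1.88 and 4.61 in ABPC_EV. The FBMSC_EV animals lay above PBS without overlap, by 0.36 ± 0.26 (limma adjusted p = 0.997), while ABPC_EV replicate 2 was the lowest of the 9. DNAJC14 differed by 0.28 ± 0.15 in FBMSC_EV and 0.17 ± 0.15 in ABPC_EV.

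DNAJA4 stood out by a single animal: PBS replicate 1 read 13.7 scaled, against 1.31 and 2.26 in the other PBS animals, 1.35, 3.48 and 2.96 in FBMSC_EV, and 1.98, 3.56 and 3.98 in ABPC_EV. That library also had the highest erythroid share (93.1%) and the smallest size factor (0.326). The value came from 314 recovered reads, against 45 and 99 in the other PBS animals. The part of the red cell content in it was not tested. DNAJC6, the auxilin that helps HSP70 uncoat clathrin vesicles, missed the filter. It read 0.986, 0.808 and 0.431 in PBS, 0.797, 0.449 and 0.370 in FBMSC_EV, and 0.242, 0.210 and 0.236 in ABPC_EV, with every ABPC_EV animal the lowest. Both genes were singled out after their values were seen.

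**Figure D4:**
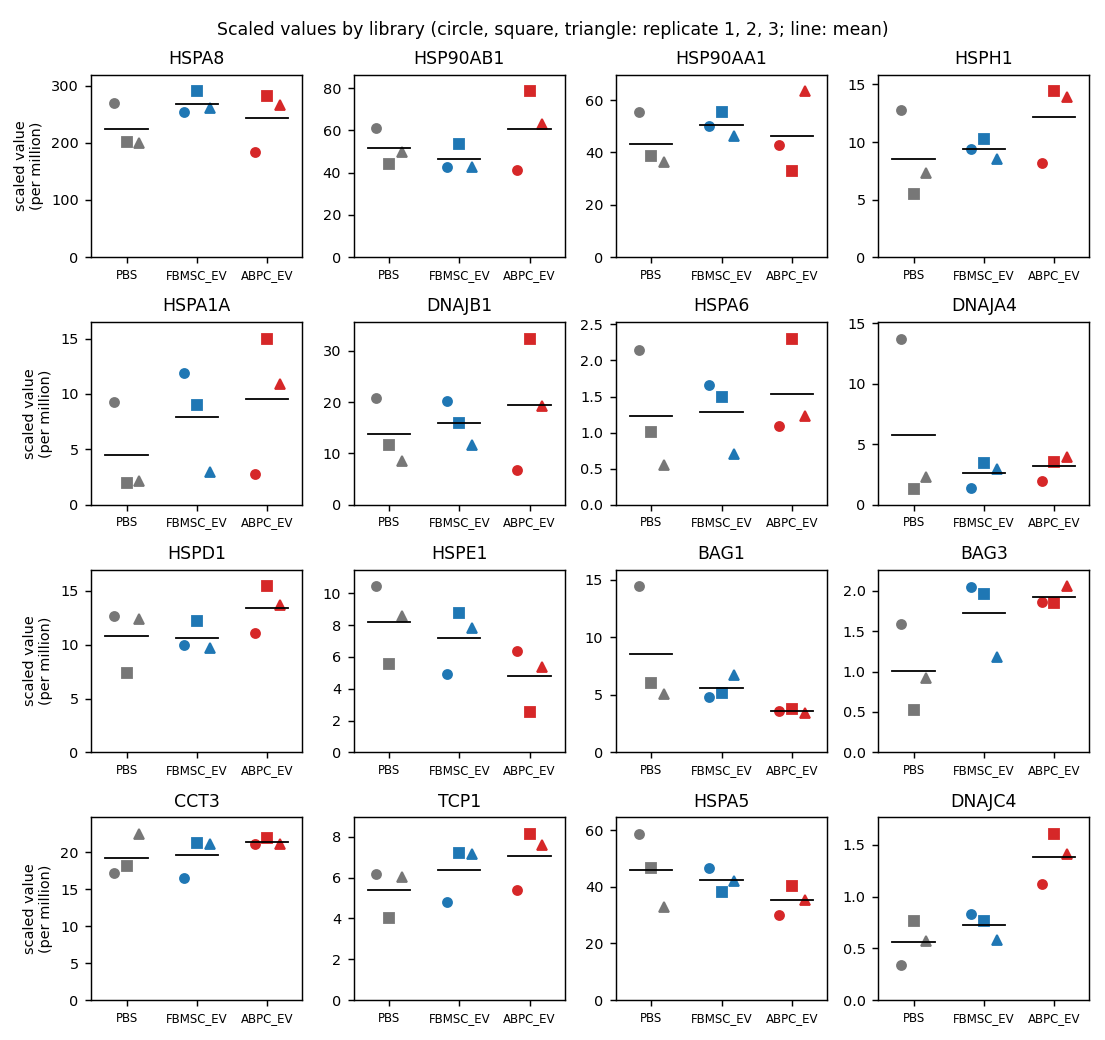
Each panel gives the scaled value (vertical axis, per-million value) of a member in the 9 libraries, by group on the horizontal axis; circle, square and triangle are replicates 1, 2 and 3, and the line is the group mean. BAG1 and DNAJA4 show PBS replicate 1 alone at 14.4 and 13.7, and HSPA1A spans 1.96 to 14.98 with all groups overlapping.

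The cytosolic ring of TCP1 and CCT2 to CCT8 had the smallest spread of the classes. Its summed scaled value, with the paralogs CCT6B and CCT8L2, was 99.9, 98.0 and 106 in PBS, 92.01, 111 and 106 in FBMSC_EV, and 91.6, 106 and 109 in ABPC_EV. The means of 101 ± 3.95, 103 ± 9.72 and 102 ± 9.12 (SD, n = 3) differed by less than the spread within a group. CCT3, the subunit with the highest level, read 17.1, 18.2 and 22.5 scaled in PBS, 16.6, 21.3 and 21.1 in FBMSC_EV and 21.2, 21.9 and 21.1 in ABPC_EV. The median spread within groups over its 8 tested members was 0.179 (SD of log2), against 0.256 over all tested members and 0.286 over all genes tested. CCT8L2 and CCT6B were at 0 to 0.171 scaled.

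The 8 subunits enter the ring in equal numbers, but their transcript levels per length did not. CCT3 made up 17.2% to 23.2% of the 8, CCT7 13.3% to 18.1%, and TCP1 4.11% to 7.69%. TCP1 read 6.17, 4.02 and 6.03 scaled in PBS, 4.83, 7.19 and 7.15 in FBMSC_EV, and 5.37, 8.14 and 7.62 in ABPC_EV. It was 0.33 ± 0.23 higher in ABPC_EV than in PBS after scaling (limma adjusted p = 0.678), with overlapping groups. CCT5 read 12.3, 14.1 and 10.2 in PBS, 15.4, 11.8 and 9.76 in FBMSC_EV and 7.45, 10.3 and 9.83 in ABPC_EV. Its share of the ring ranged from 8.14% in ABPC_EV replicate 1 to 16.7% in FBMSC_EV replicate 1, the widest of the subunits within a group. CCT8 had a share of 11.6%, 9.55% and 10.7% in PBS and 9.41%, 6.32% and 8.75% in ABPC_EV, which did not overlap, and a scaled difference of -0.35 ± 0.20 (limma adjusted p = 0.600), or -0.21 without ABPC_EV replicate 2. CCT6A separated the other way, at 15.3%, 14.4% and 14.9% in PBS and 15.5%, 16.5% and 15.8% in ABPC_EV. Both separations reached the smallest exact permutation p possible, 0.1.

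**Figure D5:**
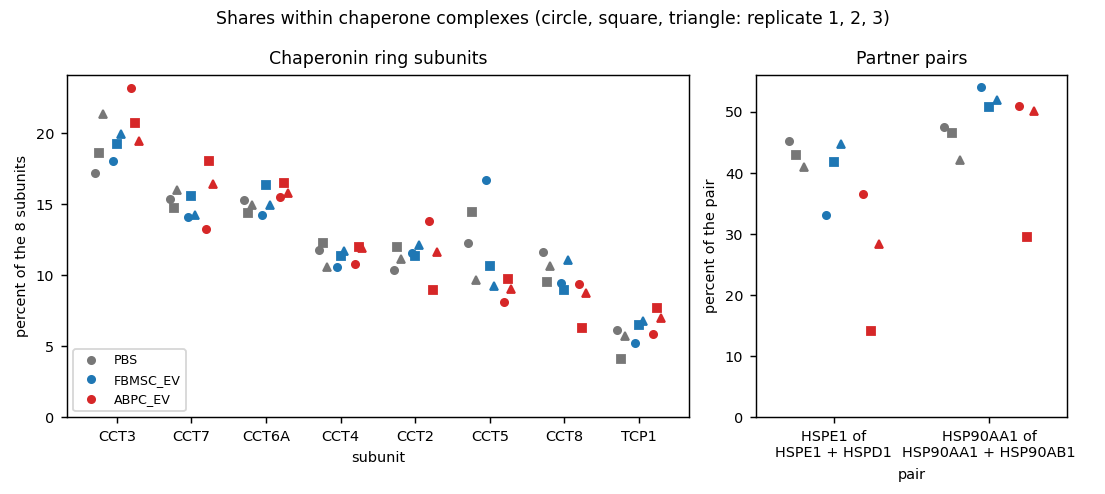
Points are single libraries, coloured by group, with the percent that each ring subunit makes up of the 8 subunits (left) and that HSPE1 and HSP90AA1 make up of their pairs (right). CCT3 lies at 17.2% to 23.2% and TCP1 at 4.11% to 7.69%, and ABPC_EV replicate 2 lies apart at 14.2% for HSPE1 and 29.5% for HSP90AA1.

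BAG proteins, which release substrates from HSP70, held the member with the lowest scaled fold change, BAG1. BAG1, an exchange factor that links HSP70 to the proteasome, read 4.71, 2.79 and 3.87 as deposited in PBS, 4.65, 6.20 and 6.32 in FBMSC_EV, and 5.46, 7.99 and 8.43 in ABPC_EV. Scaled it read 14.4, 6.01 and 5.11, then 4.78, 5.21 and 6.69, then 3.64, 3.74 and 3.39. The ABPC_EV animals were thus above all PBS animals as deposited, at 0.79 ± 0.35 (limma adjusted p = 0.0363), and below all other animals after scaling, at -0.92 ± 0.31 (unadjusted p = 0.0151, limma adjusted p = 0.328). PBS replicate 1 carried much of the scaled difference, which was -0.53 without it. The deposited call was lost without any FBMSC_EV animal, without ABPC_EV replicate 2 (0.73) or 3 (0.69), without PBS replicate 2 (0.64), and in a fit on the compared groups alone.

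BAG3, the stress-induced member that feeds HSP70 clients to autophagy, read 1.58, 0.527 and 0.923 scaled in PBS, 2.04, 1.96 and 1.18 in FBMSC_EV, and 1.86, 1.85 and 2.05 in ABPC_EV. ABPC_EV and PBS did not overlap, and the difference was 0.57 ± 0.22 (unadjusted p = 0.0255, limma adjusted p = 0.389); without PBS replicate 2 it was 0.41. Limma-voom gave 1.11 on the recovered reads. It stayed under 1 as deposited in the PBS libraries and thus passed the filter through the vesicle groups. BAG6, which handles mislocalised proteins and has the highest level of its class, ranged from 15.4 to 29.1 scaled with overlapping groups. BAG2 missed the filter, and BAG4 and BAG5 differed by 0.04 ± 0.15 and 0.19 ± 0.19 after scaling.

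After scaling, 3 tested members (DNAJC4, BAG3 and HSPA13) were higher in all ABPC_EV than in all PBS animals, and 2 (BAG1 and DNAJA2) were lower in all of them. DNAJC4, BAG3 and HSPA13 were under 1 as deposited in every PBS library. They thus passed the filter through the vesicle groups, DNAJC4 through ABPC_EV alone. Over all genes tested, 6.45% were higher and 7.51% lower without overlap, so the 59 members lay near that background. With no filter, 4 of the 80 members were higher and 3 lower after scaling, beside 1537 and 1062 of the 24371 genes. In FBMSC_EV against PBS, 2 members (HSPA13 and DNAJB14) were higher without overlap and 0 lower, beside 526 and 499 of the 10596 genes.

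Small heat shock proteins were close to silent in these libraries. HSPB1, known as HSP27, had 0 to 16 recovered reads a library, and HSPB2, HSPB6 and HSPB9 also missed the filter. HSPB11, which in cells belongs to intraflagellar transport, was the single tested member of the class at 1.23, 1.09 and 1.997 scaled in PBS, 1.39, 0.4297 and 0.607 in FBMSC_EV, and 1.09, 0.443 and 1.001 in ABPC_EV. Its groups overlapped. Without ABPC_EV replicate 2 or PBS replicate 3 its deposited fold change passed the test, at 0.80 and 0.85.

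Against PBS, the FBMSC_EV animals had higher deposited values in most chaperone genes, but none passed the test. Limma called 0 of 59 members and 0.255% of all genes higher, with 34 of 59 members and 4625 of 10596 genes at an unadjusted p under 0.05 in that direction. The median log2 fold change was 0.86 over the tested members and 0.70 over all genes. HSPA1A (1.59 ± 0.55, limma adjusted p = 0.0909), HSPA8 (1.35 ± 0.45, 0.0909) and DNAJA1 (1.34 ± 0.42, 0.0909) had the highest values. PBS replicate 3, the PBS animal with the highest size factor, decided that count: 36 members were called without it, as were 43.4% of all genes. Fewer were called without ABPC_EV replicate 2 (3 members, 7.04% of all genes), ABPC_EV replicate 1 (1, 3.66%) or FBMSC_EV replicate 3 (1, 1.23%), and 8 (10.03%) in a fit on these groups alone. Without the erythroid genes the median was 0.44.

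After scaling, 0 of 59 members and 0% of all genes were called in FBMSC_EV against PBS, and limma-voom also called 0 members, with 1 at an unadjusted p under 0.05 (BAG3). The median was 0.03, with 33 members above 0 and 26 below, beside 5618 and 4978 of all genes. At an unadjusted p under 0.05 there was 1 member higher (HSPA13; 2.24% of all genes tested) and 0 lower (2.6%), and 0 to 2 members with 1 library left out. HSPA1A had a scaled fold change of 0.80 ± 0.66 and DNAJA4 of -0.47 ± 0.59 (limma adjusted p = 0.999 for both). The HSPA1A value was 0.45 without FBMSC_EV replicate 1 and 1.42 without PBS replicate 1.

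Between the vesicle groups, ABPC_EV had the higher deposited value for 59 of 59 tested members, and for 10074 of all 10596 genes tested. Again none of the members passed the test, and DNAJB4 (0.19) was at -0.13 without ABPC_EV replicate 3. Limma called 0 members and 0.585% of all genes higher, and 33 members and 5091 genes had an unadjusted p under 0.05. The medians were 0.78 and 0.71. Without ABPC_EV replicate 1, the ABPC_EV animal with the smallest size factor, 32 members and 45.8% of all genes were called. Without PBS replicate 3 there were 16 (25.7% of all genes), and without FBMSC_EV replicate 2 there was 1 (3.98%). Without the erythroid genes the median was 0.33. HSP90AB1 (1.29 ± 0.47), HSPH1 (1.21 ± 0.42) and HSPD1 (1.21 ± 0.42) led, each at a limma adjusted p of 0.0737.

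After scaling, 0 members and 0% of all genes were called between the vesicle groups, by limma and by limma-voom. The median was -0.01, with 29 members above 0 and 30 below, beside 5002 and 5594 of all genes. At an unadjusted p under 0.05, DNAJC4 was higher in ABPC_EV at 0.46 ± 0.17 (1.4% of all genes tested higher, limma adjusted p = 0.900), and 0 members were lower (3.97%). DNAJC4 passed the filter through the ABPC_EV libraries alone, and the count of 1 became 0 to 2 with 1 library left out. DNAJA1 was at -0.58 ± 0.30 (limma adjusted p = 0.934), or -0.37 without ABPC_EV replicate 2, and HSPE1 at -0.54. The comparisons share their PBS or vesicle animals and are not independent of each other.

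Some genes that heat induces varied widely between the animals of a group. HSPA1A, the classic inducible HSP70, read 3.04, 0.910 and 1.64 as deposited in PBS, 11.6, 10.7 and 2.78 in FBMSC_EV, and 4.17, 32.0 and 27.1 in ABPC_EV, on 57 to 981 recovered reads. It had the highest deposited fold change of any member in ABPC_EV against PBS (2.63 ± 0.55, limma adjusted p = 0.000439). Scaled it read 9.31, 1.96 and 2.16, then 11.9, 8.97 and 2.94, then 2.77, 14.98 and 10.9, a range within each group of 4.75-fold, 4.03-fold and 5.40-fold. Each group held both a low and a high animal, and the scaled difference between ABPC_EV and PBS was 0.97 ± 0.66 (limma adjusted p = 0.673), from 0.54 without ABPC_EV replicate 2 to 1.58 without PBS replicate 1. HSPA1B, whose transcript is nearly identical, is not among the deposited genes, so HSPA1A may hold reads of both.

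The spread of HSPA1A within groups, 1.01 (SD of log2), was the highest of the 59 tested members and above that of 98.3% of the 3392 tested genes within 2-fold of its level. DNAJA4 (0.898) and DNAJB1 (0.742) followed, above 97.3% and 92.1% of genes of like level. DNAJA4 is not among the heat-inducible members listed below. Of those listed, HSPE1 and HSPH1 lay above 81.1% and 70.7% of genes of like level. DNAJA1, BAG3, HSPD1, HSP90AA1 and HSPA8 lay above 55.45%, 50.9%, 43.5%, 29.7% and 9.16%. Wide spread was thus not shared by the whole list. HSPA6, a strictly inducible HSP70, read 2.14, 1.01 and 0.546 in PBS, 1.66, 1.499 and 0.697 in FBMSC_EV, and 1.09, 2.30 and 1.23 in ABPC_EV. PBS replicate 1, FBMSC_EV replicate 1 and ABPC_EV replicate 2 were the highest of their groups for HSPA1A, DNAJB1 and HSPA6 alike. At the other end, FBMSC_EV replicate 3 and ABPC_EV replicate 1 were the lowest of theirs for all 3 genes. Other heat-inducible members differed: HSP90AA1 was highest in FBMSC_EV replicate 2 and ABPC_EV replicate 3. HSPE1 was highest in FBMSC_EV replicate 2 and ABPC_EV replicate 1. Over all genes tested, FBMSC_EV replicate 1 and ABPC_EV replicate 2 were also the most often highest of their groups (39.6% and 40.1%).

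Of 10 listed heat-inducible members in the table, 9 were tested: HSPA1A, HSPA8, HSP90AA1, HSPH1, HSPD1, HSPE1, DNAJA1, DNAJB1 and BAG3. The list thus includes HSPA8, described above as constitutive, whose own deposited fold change of 2.15 is the deposited median given next. As deposited 9 of 9 were called higher in ABPC_EV than in PBS, at a median of 2.15, beside 90.9% and 1.41 for all genes; after scaling 0 were called and the median was 0.31 beside 0.00. PBS replicate 1 was the highest PBS animal for 9 of the 9 after scaling, whereas it was the highest for 31.2% of all genes tested. Over all tested members it was the highest for 29 of 59 (49.15%). For HSPD1 the margin was small, at 12.65 against 12.36 in PBS replicate 3. FBMSC_EV replicate 3 was the highest of its group for 0 of the 9 (29.9% of all genes), replicate 1 for 4 and replicate 2 for 5. ABPC_EV replicate 2 was the highest for 5 (40.1%), replicate 3 for 3 and replicate 1 for 1. PBS replicate 1 also had the highest erythroid share and ABPC_EV replicate 2 the lowest, 71.3%; the part of that share in these levels was not tested.

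Members that work in the endoplasmic reticulum and in mitochondria were called as deposited and not after scaling. Of the 8 members of the endoplasmic reticulum (HSPA5, HSPA13, HSP90B1, DNAJB9, DNAJB11, DNAJC1, DNAJC3 and DNAJC10), 8 were called higher as deposited in ABPC_EV against PBS, at a median of 1.58, beside 90.9% of all genes called and a median of 1.41. After scaling 0 were called, at 0.09. DNAJB9, induced by unfolded protein in that compartment, read 4.44, 4.58 and 3.22 scaled in PBS, 3.10, 2.81 and 3.47 in FBMSC_EV and 2.74, 2.79 and 3.84 in ABPC_EV, with overlapping groups. Of the 6 mitochondrial members 5 were tested, with 5 called as deposited (median 1.63), again beside 90.9% of all genes, and 0 after scaling (median 0.04).

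Partners of the chaperones from outside the family were read for comparison, 54 genes of which 52 were tested. As deposited 52 of 52 were called higher in ABPC_EV than in PBS, at a median of 1.48, beside 90.9% and 1.41 for all genes; after scaling 0 were called, and 0 in the other comparisons on either scale. HSF1, the factor that switches on the heat shock genes, differed by 1.93 as deposited and 0.08 ± 0.21 after scaling. The HSP90 cochaperones STIP1, which joins HSP70 to HSP90, and AHSA1, which speeds its ATPase, differed by 0.28 ± 0.30 and 0.05 ± 0.28 after scaling.

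At an unadjusted p under 0.05, 0 of the 52 partners were higher and 7 lower in ABPC_EV than in PBS after scaling, against 3.08% and 7.12% of all genes. They were CLPX and CLPB, unfoldases of mitochondria (-0.93 ± 0.25 and -0.58 ± 0.15), the prefoldin subunits PFDN2 and PFDN6, which hand actin and tubulin to the ring (-0.73 ± 0.19 and -0.49 ± 0.21), the HSP90 cochaperones CDC37, which brings kinases, and SUGT1 (-0.60 ± 0.24 and -0.64 ± 0.29), and the stress factor ATF4 (-0.55 ± 0.24). The smallest limma adjusted p among them was 0.198, for CLPB. The groups did not overlap for 6 of the 7, PFDN6 being the other. These genes were singled out by their p in the same comparison, after their values were seen, so that count is no separate evidence. Over all 52 tested partners, 7 were lower and 1 higher without overlap, beside 7.51% and 6.45% of all genes tested. As deposited each of the 7 genes picked by p was called higher, as were 90.9% of all genes. Over the 9 prefoldin and ring helper genes the scaled median was -0.34, with 1 above 0 and 8 below, beside 0.04 for the ring subunits themselves. Among all genes, 5322 were above 0 and 5274 below. That list holds PFDN2 and PFDN6, which were picked by p. The mitochondrial partners were at -0.30 and the stress factors of the endoplasmic reticulum at -0.09. The HSP70 partners were at 0.00, and the HSP90 cochaperones and heat shock factors each at 0.08. The folding genes of the endoplasmic reticulum were at 0.10. The erythroid list had a scaled median of -1.48 over 39 tested genes in the same comparison, and its part in these values was not tested.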

How the data were processed

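Whole-blood RNA of 9 animals was sequenced as paired-end Illumina libraries from the NEBNext Ultra kit, per the labels' protocols. The authors deposited 1 table of log2 values for 24371 genes, on the Mmul_10 build per the submitters' processing notes; no source used here names the aligner, the counter or the handling of multi-mapped reads. The values are log2 of a per-million value plus 0.5, read from the numbers: undone, each column sums to about 1000000, per gene length. Low values were whole multiples of 1 read for 21550 of 21551 genes above 0 in at least 2 libraries (99.995%, tolerance 0.001), and 77 of 77 such members; 2820 genes above 0 in 1 library were left out. A multiple common to a gene's reads cannot be told apart. The column and label names matched, and 0 columns were left unmapped.

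Genes at 1 or more in at least 3 samples (10596) were tested with limma 3.58.1 (R 4.3.3, trend) on log2(value + 1) over all 9 samples, with Benjamini-Hochberg adjustment over all genes and a threshold of 0.05. A fold change on that scale understates the change of low genes. Each limma test was run as deposited and after median-ratio scaling, and was also run on simulated data. The simulation built in no difference in erythroid share between groups, so it cannot show how that share acts on either scale. Alternatives were another pseudocount (0.5), other filters, upper-quartile scaling, the compared groups alone, a replicate block, removal of the erythroid list, limma-voom on the recovered reads, and leaving out each library. Erythroid removal rescaled the remaining genes to a common total. Shares were compared by exact two-sided permutation tests.

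Same-numbered animals are different animals. Named genes were a set always named, the 5 smallest p in each direction and comparison after scaling, and the most abundant tested member of each class. The members and all lists were chosen with earlier results of these data known. RefSeq held 78 of the 80 symbols, under another assembly, so no coordinates or sequences are given.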

Additional observations from a re-analysis of the deposited data

How the results depend on the processing

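After median-ratio scaling, 0 members were called in each of the 3 comparisons under every alternative run: pseudocount 0.5, filters, upper-quartile scaling, limma-voom, the compared groups alone, the replicate block, and each library left out. Among all genes, 172 of 10524 (1.63%) were called in ABPC_EV against PBS without PBS replicate 3. The other scaled fits called at most 5 genes each. The scaled member median stayed between -0.01 and 0.09 (ABPC_EV against PBS), -0.01 and 0.09 (FBMSC_EV against PBS) and -0.04 and 0.07 (between vesicle groups) over the libraries left out. The deposited calls moved more. With the erythroid list taken out, the 57 members called in ABPC_EV against PBS fell to 0, and the share of all genes called from 91.0% to 0%. The member medians became 0.81, 0.44 and 0.33 in that order of comparisons. On the compared groups alone, 8 members and 10.03% of all genes were called in FBMSC_EV against PBS. Leaving out each library gave 53 to 58, 0 to 36 and 0 to 32 called members. In the same fits 82.6% to 92.1%, 0.123% to 43.4% and 0.454% to 45.8% of all genes were called. The member medians were 1.39 to 1.77, 0.69 to 1.05 and 0.61 to 0.97. The causes were not tested.

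With the replicate block, 17 members in place of 0 were called between the vesicle groups as deposited (32.1% of all genes). In ABPC_EV and FBMSC_EV against PBS, 57 and 0 members were called with it (91.4% and 0.415% of all genes). The numbers pair nothing by design. Same-numbered libraries correlated at -0.248 to 0.282 in their deviations from the group means, over 0.1 in 4 of 9 pairs, and not every sample correlated best with its own number. Each of 30 named members was also refitted in every comparison on both scales, 180 fold changes and 2142 checks. Of these checks 2002 kept direction and side of the threshold, 10 lost the call (BAG1 and HSPE1), 68 gained one, all as deposited, and 62 changed direction, all with 1 library left out. On the scaled values, leaving out 1 library changed the direction of 31 of 90 and the direction or the size by over 1.5 times of 77; as deposited these were 2 and 18. The scaled ranges that crossed 0 were, in ABPC_EV against PBS, DNAJA1 (-0.47 to 0.01), DNAJB1 (-0.14 to 0.90), HSP90AA1 (-0.18 to 0.29), HSP90AB1 (-0.00 to 0.45) and HSP90B1 (-0.00 to 0.19). In FBMSC_EV against PBS they were BAG5 (-0.12 to 0.13), BAG6 (-0.37 to 0.06), CCT3 (-0.05 to 0.14), CCT5 (-0.16 to 0.15), CCT8 (-0.18 to 0.00), DNAJA2 (-0.16 to 0.07), DNAJB1 (-0.00 to 0.59), HSP90B1 (-0.09 to 0.13), HSPA5 (-0.30 to 0.10), HSPA9 (-0.05 to 0.19), HSPD1 (-0.22 to 0.13), HSPE1 (-0.39 to 0.05) and HSPH1 (-0.04 to 0.50). Between the vesicle groups they were BAG3 (-0.04 to 0.21), BAG6 (-0.31 to 0.11), DNAJB1 (-0.40 to 0.65), DNAJB14 (-0.18 to 0.29), DNAJB2 (-0.18 to 0.15), DNAJB9 (-0.13 to 0.06), HSP90AA1 (-0.42 to 0.05), HSP90B1 (-0.02 to 0.18), HSPA13 (-0.14 to 0.06), HSPA1A (-0.34 to 0.79), HSPA8 (-0.28 to 0.04), HSPB11 (-0.10 to 0.27) and TCP1 (-0.04 to 0.28). As deposited they were HSPB11 (-0.18 to 0.29) in FBMSC_EV against PBS and DNAJB4 (-0.13 to 0.56) between the vesicle groups. Reads limit the low members most: HSPB1 with 0 to 16 and DNAJC4 with 5 to 91 a library.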
